A study of Mus musculus with 24 samples.

Results

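Oxidative phosphorylation is carried out by 5 protein complexes of the inner mitochondrial membrane, and most of their subunits are encoded in the nucleus. Rows of the deposited table were taken when the gene name is that of a nuclear-encoded subunit (names in Nduf for complex I, Sdh for complex II, Uqcr for complex III, a set of Cox names for complex IV and names in Atp5 for complex V) and when the mean over the 24 libraries was at least 10 normalized counts. Of 54432 rows, 81 carried such a name and 76 met the minimum, with 36 rows in complex I, 4 in complex II, 8 in complex III, 10 in complex IV and 18 in complex V. The 5 rows left out were Atp5 pseudogenes, the highest with a mean of 1.56, and the lowest rows kept were a second row named Atp5o (mean 41.7) and Atp5g2 (mean 63.2). That second Atp5o row, ENSMUSG00000116933.1, lies over the ordinary Atp5o gene on the same strand, so the 76 rows hold 75 gene names.

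The libraries were made from whole liver of male C57BL/6 mice, 6 mice a group, sequenced as poly(A)-selected stranded RNA. The groups were mice with floxed Trib1 (Trib1-KO), floxed Cebpa (Cebpa-KO), both floxed genes (DKO) and wild type (WT). All 4 groups, WT included, were injected with an adeno-associated virus encoding Cre recombinase at 20 to 21 weeks of age, and livers were taken 4 weeks later after a 4 h fast. The promoter that drives Cre is not given in the sources used here, so the cells that recombined are not stated, and the mice came from 2 cohorts that the table's columns do not tell apart. TRIB1 is a pseudokinase that directs the transcription factor C/EBPα, the product of Cebpa, to degradation, and the series concerns their part in the handling of LDL by hepatocytes.

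Cebpa averaged 2668 ± 359 normalized counts in libraries labelled Trib1-KO, 82.2 ± 17.5 in Cebpa-KO, 82.4 ± 18.1 in DKO and 6019 ± 1057 in WT libraries (SD, n = 6 each). Trib1 itself averaged 4237 ± 358 in libraries labelled Trib1-KO, 333 ± 158 in Cebpa-KO, 732 ± 259 in libraries labelled DKO and 1224 ± 204 in WT libraries. The level of the Trib1 gene was thus higher, not lower, in the libraries labelled Trib1-KO than in WT, and higher in the libraries labelled DKO than in Cebpa-KO, which goes against those labels. The floxed part of Trib1 is not given in the sources used here, and a value per gene does not show which part of the transcript was read. Trib1-KO and DKO are therefore used below as names of labels.

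Complex I takes electrons from NADH and complex II takes them from succinate, complex III passes them from ubiquinone to cytochrome c, and complex IV hands them to oxygen. Complexes I, III and IV pump protons across the inner membrane, and complex V, the ATP synthase, uses their return to make ATP. Mitochondrial DNA encodes part of every complex except complex II, so complexes I, III, IV and V draw on both genomes. Transcription factors such as NRF1, GABPA (also called NRF2), YY1 and ERRα, together with the PGC-1 coactivators, are known to act on many of the nuclear genes, and in the liver the complexes supply ATP for making glucose and urea.

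The promoters of the 6 subunits whose difference from WT was called in the same direction on both scales described below are shown. Both scales use the same libraries, so this is a rule of choice and not separate support for these 6. Each promoter is the window of 250 bases before to 50 bases after the RefSeq start (GRCm38.p6), written on the strand of the gene. Capitals mark matches to the motifs searched.
Atp5g1, chr11:96075582-96075881, minus strand: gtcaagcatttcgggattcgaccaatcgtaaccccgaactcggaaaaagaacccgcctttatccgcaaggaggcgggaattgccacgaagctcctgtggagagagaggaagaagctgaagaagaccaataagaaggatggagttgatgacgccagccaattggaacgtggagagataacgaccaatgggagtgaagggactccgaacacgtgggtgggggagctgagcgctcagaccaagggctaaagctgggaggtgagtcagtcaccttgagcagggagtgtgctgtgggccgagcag
Ndufa4, chr6:11907401-11907700, minus strand: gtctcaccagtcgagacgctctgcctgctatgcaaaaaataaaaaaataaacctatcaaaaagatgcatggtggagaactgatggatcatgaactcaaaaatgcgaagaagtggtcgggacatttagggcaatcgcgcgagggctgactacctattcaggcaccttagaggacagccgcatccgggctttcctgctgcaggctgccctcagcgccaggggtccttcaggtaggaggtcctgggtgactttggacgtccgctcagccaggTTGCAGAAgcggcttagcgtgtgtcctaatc
Uqcr11, chr10:80406772-80407071, minus strand: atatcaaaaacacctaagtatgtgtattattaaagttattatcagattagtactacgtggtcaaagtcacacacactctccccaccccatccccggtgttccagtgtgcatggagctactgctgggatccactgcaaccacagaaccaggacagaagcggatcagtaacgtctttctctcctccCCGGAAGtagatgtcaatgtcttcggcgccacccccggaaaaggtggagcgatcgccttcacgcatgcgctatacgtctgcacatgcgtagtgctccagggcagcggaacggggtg
Cox6b1, chr7:30626065-30626364, minus strand: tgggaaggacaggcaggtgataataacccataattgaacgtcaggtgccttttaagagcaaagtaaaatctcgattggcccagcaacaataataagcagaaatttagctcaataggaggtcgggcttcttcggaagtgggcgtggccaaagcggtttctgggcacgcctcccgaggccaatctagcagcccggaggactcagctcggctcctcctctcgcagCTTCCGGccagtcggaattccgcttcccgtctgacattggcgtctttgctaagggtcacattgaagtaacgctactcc
Sdha, chr13:74350191-74350490, minus strand: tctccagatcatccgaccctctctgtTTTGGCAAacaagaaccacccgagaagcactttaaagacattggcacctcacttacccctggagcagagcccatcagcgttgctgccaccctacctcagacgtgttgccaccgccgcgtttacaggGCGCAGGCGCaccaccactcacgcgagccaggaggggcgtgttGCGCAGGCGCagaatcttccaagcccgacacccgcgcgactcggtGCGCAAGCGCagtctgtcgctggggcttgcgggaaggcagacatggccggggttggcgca
Ndufb3, chr1:58586147-58586446, plus strand: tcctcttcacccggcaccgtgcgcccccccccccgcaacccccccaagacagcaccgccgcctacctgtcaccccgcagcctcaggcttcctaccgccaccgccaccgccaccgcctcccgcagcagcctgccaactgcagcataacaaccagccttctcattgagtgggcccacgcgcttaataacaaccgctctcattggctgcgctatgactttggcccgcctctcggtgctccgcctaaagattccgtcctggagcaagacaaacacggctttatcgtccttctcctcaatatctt
The capitals in Sdha mark 3 NRF1 matches and, near the far end, a C/EBP match. The capitals in Ndufa4 mark a C/EBP match just after the start, and those in Uqcr11 and Cox6b1 each mark a GABPA match. No motif searched was found in the windows of Atp5g1 and Ndufb3.

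A RefSeq window was found for 63 of the 75 gene names, and 5 motifs were searched on both strands. The NRF1 palindrome was in the windows of 17 of 63 subunits (27%), against 7.17% of protein-coding genes. The GABPA motif CCGGAAG was likewise in 17 windows (27%), against 13% of protein-coding genes. The YY1 motif AAGATGGCG was in 7 windows (11.1% against 2.13%), 5 of them of complex I genes, which hold 32 of the 63 windows. The ERRα motif TCAAGGTCA was in 2 windows (3.17% against 0.377%). The C/EBP motif TTGCNNAA, in contrast, was about as frequent among the subunits (8 windows, 12.7%) as among protein-coding genes (11.7%). These are descriptions of short windows, in which 25 of the 63 subunits held none of the 5 motifs.

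Levels differed widely between subunits. Per kilobase of transcript, the mean level in WT libraries ran from 72.0 normalized counts for the second Atp5o row and 165 for Atp5g2 to 12910 for Atp5b, the catalytic β subunit of ATP synthase. The median per kilobase was 1610 for complex I, 3352 for complex II, 4269 for complex III, 4628 for complex IV and 3619 for complex V. The 3 Atp5g genes encode the same mature c subunit of the ATP synthase rotor from different loci, and in WT libraries they stood at 2806 (Atp5g1), 165 (Atp5g2) and 8877 (Atp5g3) per kilobase.

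The scale of the table matters for all comparisons with the libraries labelled Trib1-KO. Major urinary protein (Mup) genes, which encode abundant secreted pheromone carriers, took 21.4 to 27.4% of the summed values in libraries labelled Trib1-KO, 1.33 to 2.26% in Cebpa-KO, 1.45 to 4.63% in DKO and 2.99 to 8.89% in WT libraries. The deposited values are centred on the typical gene of each library, and on that scale the 76 subunits summed to 185649 to 202037 normalized counts in libraries labelled Trib1-KO, 214870 to 273713 in Cebpa-KO, 212002 to 238713 in DKO and 215893 to 255783 in WT libraries. Every Trib1-KO library thus lay below every WT library. As a share of the total without Mup genes, the subunits made up 0.980 to 1.03% in libraries labelled Trib1-KO, 0.927 to 1.14% in Cebpa-KO, 0.827 to 1.04% in DKO and 0.914 to 1.09% in WT libraries, and all 4 ranges overlap. The results below are given on the deposited scale and on a Mup-free scale. On the latter each library is divided by its total without Mup genes. That total was 18937100 to 20032200 in libraries labelled Trib1-KO and 22679400 to 23844300 in WT libraries. The Mup-free scale thus raises every gene in Trib1-KO relative to WT. A call lost on it is not by itself an effect of Mup genes, and why that total was lower was not tested. Between Trib1-KO and WT, the Mup-free scale moves the median log2 difference of all 19810 genes tested to 0.24, against 0.01 on the deposited scale, so a subunit at 0 on the Mup-free scale still lies below the typical gene.

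**Figure D1:**
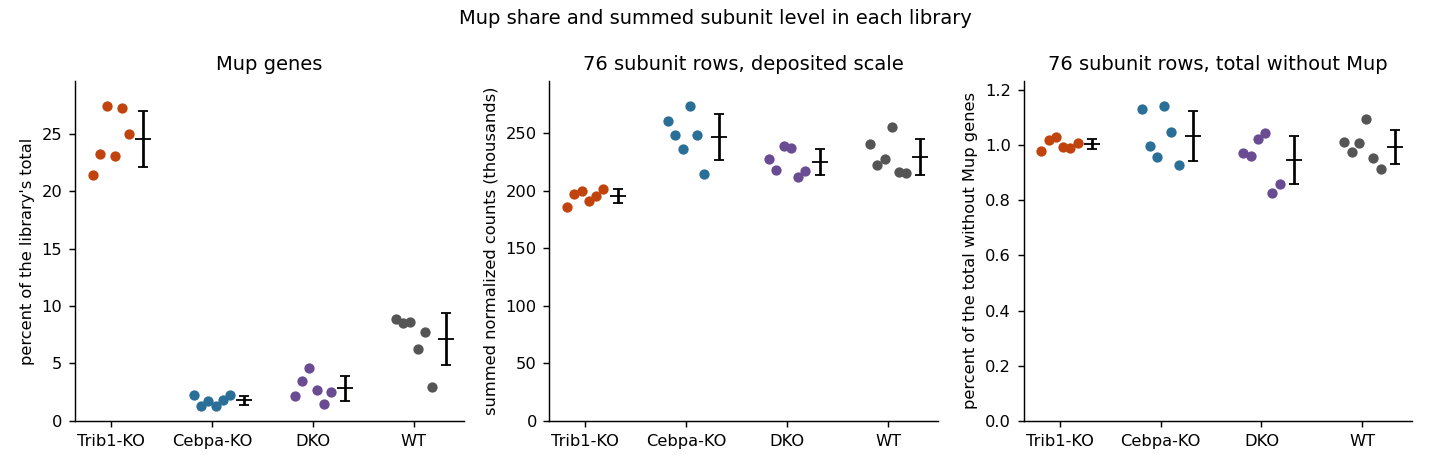
Each point is a library, grouped by label, with the mean and SD at its right (n = 6). Left, the percent of all normalized counts taken by Mup genes; centre, the sum of the 76 subunit rows in units of 1000 normalized counts; right, the same sum as a percent of the total without Mup genes. The libraries labelled Trib1-KO lie at 185649 to 202037 in the centre panel, below all others, and at 0.980 to 1.03% in the right panel, inside the range of WT.

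In the libraries labelled Trib1-KO, nuclear-encoded subunits of all 5 complexes were lower than in WT on the deposited scale. Of the 76 subunits 47 fell (adjusted p under 0.05, limma) and none rose, where 10.9% of all genes tested fell and 11.8% rose. The median log2 difference of the subunits was -0.24, against 0.01 for all genes tested and -0.09 for the 3107 abundant genes, those averaging 1000 normalized counts or more, of which 930 fell and 351 rose. For 28 subunits every Trib1-KO library lay below every WT library and for 0 above, patterns seen in 5.71% and 6.26% of all genes. Of the 3107 abundant genes, 589 lay fully lower and 219 fully higher. With Mup genes left out of the totals, the median was 0.01 against 0.24 for all genes and 0.16 for the abundant genes. On that scale 3 subunits fell and 4 rose, where 4.89% of all genes fell and 26.7% rose, and 13 of the 47 differences turned positive. There the groups did not overlap for 4 subunits that were lower and 4 that were higher, patterns seen in 2.46% and 13.8% of all genes. Of the abundant genes 391 fell and 1112 rose on the Mup-free scale, with 256 fully lower and 673 fully higher. The position relative to all genes was -0.25 on the deposited and -0.24 on the Mup-free scale, and 72 of 76 subunits lay below the median gene on each. A change of totals multiplies all genes of a library by the same factor, so this position could hardly differ between the 2 scales. Under quantile normalization, which can move it, the position was -0.14.

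The 3 subunits that fell on both scales were Uqcr11, Atp5g1 and Ndufa4. Uqcr11 (chr10:80402997-80406830), a small subunit of complex III, had 1326 to 1669 (median 1552) normalized counts in libraries labelled Trib1-KO, against 2074 to 2997 (median 2466) in WT libraries. Its log2 difference was -0.69 ± 0.10 (SE, adjusted p = 8.81e-06), a level 0.618 times that of WT. The groups did not overlap on either scale, and the Mup-free difference was -0.44 ± 0.11 (adjusted p = 0.00269). Atp5g1 (chr11:96068852-96075670) had 971 to 1145 (median 1084) normalized counts in libraries labelled Trib1-KO, against 1470.3 to 1945 (median 1601) in WT libraries. Again no library of one group reached the other, with a difference of -0.63 ± 0.08 (adjusted p = 1.07e-06) on the deposited scale and -0.38 ± 0.08 (adjusted p = 6.42e-04) on the Mup-free scale. The other genes for the same c subunit did not pass the test: Atp5g3, the most abundant of them, differed by -0.09 ± 0.10 (adjusted p = 0.600) and the scarce Atp5g2 by -0.48 ± 0.26 (adjusted p = 0.205).

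Ndufa4 (chr6:11900292-11907497) is named as a complex I gene and counted there by its name, but its product is now described as a subunit of complex IV. It had 3438 to 3798 (median 3585) normalized counts in libraries labelled Trib1-KO, against 4716 to 5486 (median 5132) in WT libraries. The difference was -0.51 ± 0.06 (adjusted p = 1.10e-06), and -0.25 ± 0.07 on the Mup-free scale (adjusted p = 0.00426), again with no overlap of the groups on either scale.

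Within complex I, 20 of 36 rows fell on the deposited scale, with a median of -0.23. The lowest of them was Ndufb4, an accessory subunit of the membrane arm, at -0.58 ± 0.16 (adjusted p = 0.00759). Ndufb4 had 108 to 171 (median 155) normalized counts in libraries labelled Trib1-KO, against 167 to 263 (median 227) in WT libraries, and the groups overlapped. Its levels are uncertain, because a copy of the gene, Ndufb4c, averaged 1031 normalized counts over the 24 libraries against 217 for Ndufb4 and reads may be split between the copies. The 2 rows summed differed by -0.40 ± 0.07 (adjusted p = 1.34e-04), or -0.15 on the Mup-free scale (adjusted p = 0.132). Of the core subunits, Ndufv1, which binds NADH, fell, at -0.33 ± 0.09 (adjusted p = 0.00646), and Ndufs7, of the ubiquinone-binding module, fell, at -0.37 ± 0.13 (adjusted p = 0.0378). Ndufs1, which carries iron-sulfur clusters, was -0.21 ± 0.10 and did not pass (adjusted p = 0.124). None of these 3 core subunits was called on the Mup-free scale.

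A few accessory subunits of complex I went the other way. Ndufs5 had 791 to 1121 (median 949) normalized counts in libraries labelled Trib1-KO, against 728 to 892 (median 839) in WT libraries, with a difference of 0.18 ± 0.08 that did not pass on the deposited scale (adjusted p = 0.103). Its Mup-free values rose by 0.43 ± 0.08 (adjusted p = 2.21e-04). Ndufb3 likewise differed by 0.16 ± 0.09 (adjusted p = 0.211) on the deposited scale and rose by 0.41 ± 0.09 (adjusted p = 8.65e-04) on the Mup-free scale. Ndufs5 and Ndufb3 were higher than the median gene on both scales, unlike 34 of the 36 complex I rows. The other subunits called higher on the Mup-free scale were Cox7b of complex IV, at 0.28 ± 0.09, and Ndufa1 of complex I, at 0.17 ± 0.06. The value of Ndufa1 is smaller than the 0.24 by which the median gene moved.

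Complex II, the link to the tricarboxylic acid cycle, had 2 of 4 subunits called. The membrane anchors Sdhc and Sdhd fell, at -0.35 ± 0.07 (adjusted p = 6.03e-04) and -0.25 ± 0.06 (adjusted p = 0.00649), with no overlap of the groups. The flavoprotein Sdha (-0.23 ± 0.09, adjusted p = 0.0552) and the iron-sulfur subunit Sdhb (-0.13 ± 0.07, adjusted p = 0.189) did not pass. All 4 lay, on the Mup-free scale, between -0.09 and 0.12, and none was called.

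In complex III, 5 of 8 subunits fell, and Uqcr11 stood apart from the others, which ranged down to -0.29 ± 0.06 (adjusted p = 0.00150) for Uqcrfs1, the Rieske iron-sulfur protein. The core protein Uqcrc2 fell, at -0.22 ± 0.06 (adjusted p = 0.00602), while its partner Uqcrc1 was -0.15 ± 0.09 (adjusted p = 0.230). Complex IV had the lowest median, -0.33, with 8 of 10 subunits called. Cox7a2 had 1912 to 1996 (median 1949.9) normalized counts in libraries labelled Trib1-KO, against 2426 to 2684 (median 2608) in WT libraries, and was the subunit with the smallest spread among libraries labelled Trib1-KO (coefficient of variation 1.88%). Its groups did not overlap on either scale, with -0.40 ± 0.05 (adjusted p = 2.75e-06) on the deposited scale and -0.15 ± 0.06 (adjusted p = 0.0735) on the Mup-free scale. The small subunits Cox7c and Cox8a fell, at -0.41 ± 0.06 and -0.48 ± 0.14, and Cox5b, Cox5a and Cox6a1 at -0.39 ± 0.08, -0.29 ± 0.08 and -0.34 ± 0.12. Cox4i1, which helps build the complex around its mitochondrially encoded core, was -0.19 ± 0.07 (adjusted p = 0.0663).

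In complex V, 12 of 18 rows fell, with a median of -0.24. Atp5b, the catalytic subunit and the most abundant per kilobase, had 21634 to 24234 (median 22567) normalized counts in libraries labelled Trib1-KO, against 22489.8 to 28402 (median 24491) in WT libraries, a difference of -0.11 ± 0.07 (adjusted p = 0.292). Its partner Atp5a1, the α subunit, fell, at -0.22 ± 0.08 (adjusted p = 0.0396) but turned positive on the Mup-free scale, at 0.04 ± 0.08 (adjusted p = 0.780). Atp5j, a stalk subunit known as coupling factor, fell, at -0.39 ± 0.10 (adjusted p = 0.00602) with overlapping groups. Atp5a1 lost its call when any 1 of 8 libraries was left out (C1, C3, D1, D2 and D3 of Trib1-KO, A1, A2 and B1 of WT), with an adjusted p of up to 0.0981, without B1. Ndufs7 lost it without any 1 of 7 (C3 and D3, A1, A2, A3, B1 and B2), at up to 0.104, and Cox6a1 without any 1 of 7 (C1, C3 and D3, A1, A2, B1 and B2), at up to 0.113, both without B1.

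**Figure D2:**
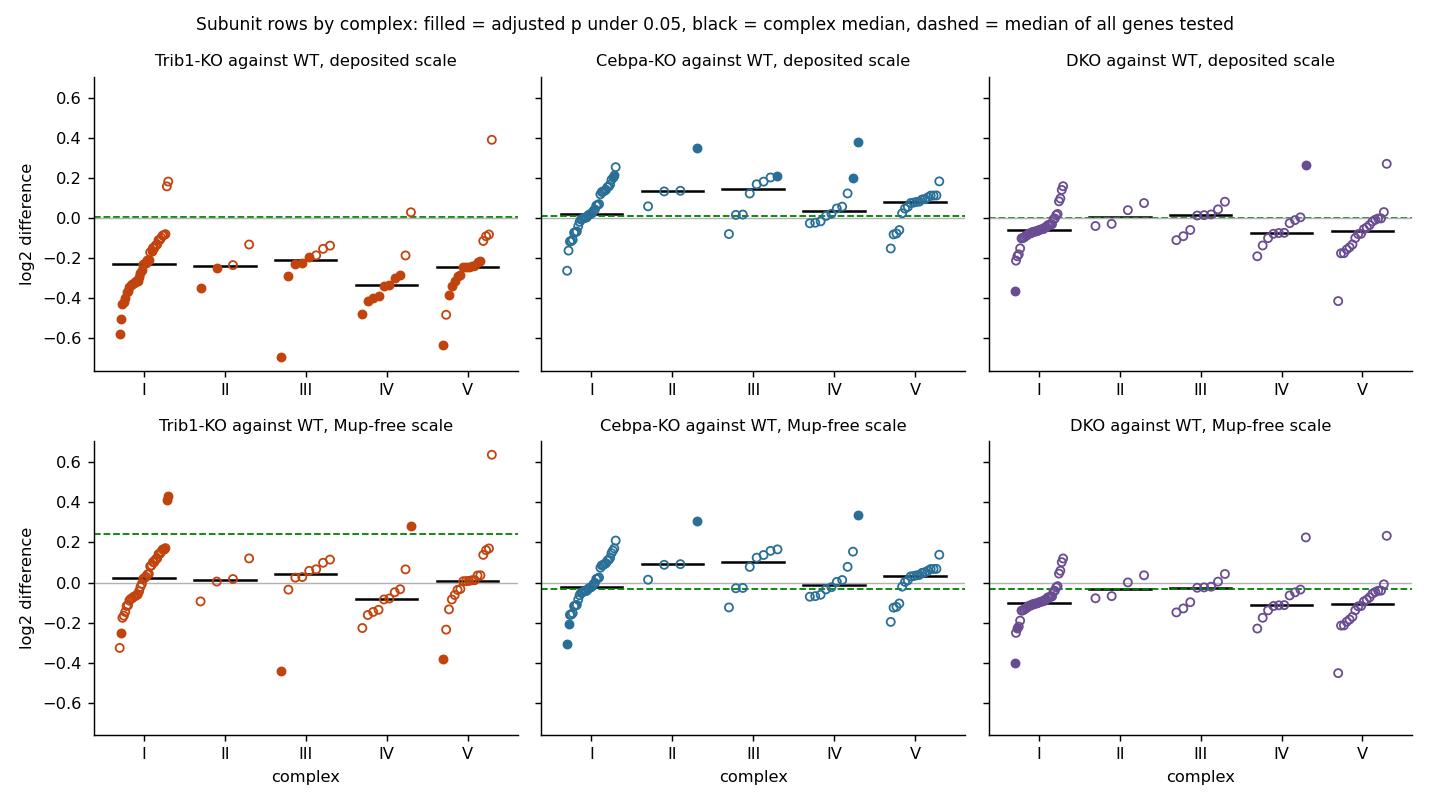
Each point is a subunit row, placed by complex (x axis) and by its log2 difference from WT (y axis); the upper panels use the deposited and the lower panels the Mup-free scale. Filled points have an adjusted p under 0.05, the black bars are the complex medians and the dashed line is the median of all 19810 genes tested. In the Trib1-KO panels 72 of 76 points lie below the dashed line on both scales, though the line itself moves to 0.24 on the Mup-free scale. Points and line move together by nearly the same amount, so this count could hardly differ between the scales.

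Whole liver holds several cell types, and fewer cells of a type and less RNA per cell cannot be told apart in such libraries. Beside the fall of the subunits, 10 of 12 macrophage and Kupffer cell markers were called higher in libraries labelled Trib1-KO, their summed level being 18896 to 22138 normalized counts, against 9915 to 17988 in WT libraries. The sum of 10 hepatocyte markers was 915970.0 to 1067890.0 in libraries labelled Trib1-KO, against 1961130.0 to 2828580.0 in WT libraries, with 7 of 10 called lower. Of hepatic stellate cell markers 4 of 10 were called higher and 0 lower in libraries labelled Trib1-KO, with a sum of 12945 to 16102, against 10432 to 15222 in WT libraries. Of lymphocyte markers 3 of 10 were higher and 0 lower (summed, 525 to 920.4 in Trib1-KO and 227 to 529.9 in WT libraries), and of the 6 neutrophil markers tested 3 were higher and 0 lower (127 to 400.5 in Trib1-KO and 60.9 to 137 in WT libraries). Summed sinusoidal endothelial markers were 11773 to 12829 in libraries labelled Trib1-KO and 10849 to 12887 in WT libraries. The endothelial list held both markers called higher and markers called lower in libraries labelled Trib1-KO than in WT. The overlap of the endothelial sums thus does not stand for every marker of that list. In Cebpa-KO libraries the hepatocyte sum was 2651260.0 to 3482340.0 and in libraries labelled DKO 2627420.0 to 3079370.0, and the macrophage sums were 12903 to 16884 and 11427 to 17827, with 0 of 12 macrophage markers called in either against WT. Cholangiocyte markers summed to 797 to 979 in Trib1-KO, 2590.4 to 7829 in Cebpa-KO, 2353 to 5376 in DKO and 1099 to 1506 in WT libraries. In Trib1-KO some cholangiocyte markers were called lower than in WT and none higher, and most of those tested were not called. In Cebpa-KO and in DKO, the hepatocyte and cholangiocyte lists each held markers called higher and markers called lower than in WT. Most cholangiocyte markers tested were not called in either comparison. The hepatocyte and cholangiocyte sums in Cebpa-KO and DKO thus do not stand for every marker of these lists. No marker of the hepatocyte, macrophage, endothelial and cholangiocyte lists was at 0 in all libraries. The part of these markers in the subunit differences was not tested.

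In Cebpa-KO livers few subunits passed the test, and those that passed on the deposited scale were higher than in WT. On the deposited scale 6 of 76 rose and none fell, where 4.60% of all genes rose and 5.22% fell, and the median was 0.06 against 0.01 for all genes. The count of 6 is not far from what the share over all genes gives for 76 rows, so it is not a result about the subunits as a group. The groups did not overlap for 3 subunits higher in Cebpa-KO and 0 lower, patterns seen in 2.52% and 2.65% of all genes. With the Mup-free totals 2 rose and 2 fell, where 3.40% of all genes rose and 6.19% fell, and the groups did not overlap for 2 that were higher and 0 lower, against 2.07% and 3.00% of all genes. Cox6b1 and Sdha were called on both scales. Cox6b1 (chr7:30616861-30626151), which joins the monomers of the complex IV dimer, had 4283 to 5338 (median 4740.2) normalized counts in Cebpa-KO libraries, against 3374 to 3869.9 (median 3695) in WT libraries. It rose by 0.38 ± 0.07 (adjusted p = 9.54e-04), to 1.30 times the WT level, and by 0.34 ± 0.07 (adjusted p = 0.00282) on the Mup-free scale, with no overlap of the groups on either. Sdha (chr13:74322254-74350280), the flavoprotein that oxidizes succinate, had 13221 to 17513 (median 14835) normalized counts in Cebpa-KO libraries, against 10000.1 to 12434 (median 12107) in WT libraries. Here too the groups did not overlap, with 0.35 ± 0.09 (adjusted p = 0.00899) on the deposited and 0.31 ± 0.09 (adjusted p = 0.0324) on the Mup-free scale.

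Ndufa9, Uqcrc2 and Cox7c in Cebpa-KO livers were called higher on the deposited and not on the Mup-free scale, and each was lost when some single libraries were left out. Cox7c was lost without any 1 of 6 (E3, F1 and F2 of Cebpa-KO, A1, A2 and B3 of WT, adjusted p up to 0.0835). Ndufa9 was lost without F1, A2 or B2 (up to 0.0574), and Uqcrc2 without E2, A3 or B2 (up to 0.0553). Ndufa9 of complex I rose by 0.20 ± 0.06 (adjusted p = 0.0196). Uqcrc2 of complex III rose by 0.21 ± 0.06 (adjusted p = 0.0204) and Cox7c of complex IV by 0.20 ± 0.06 (adjusted p = 0.0360). No complex V row was called, and the 3 Atp5g genes lay at 0.08 ± 0.08 (Atp5g1), -0.08 ± 0.26 (Atp5g2) and -0.08 ± 0.10 (Atp5g3). The 2 that fell with the Mup-free totals were Ndufb3 and Ndufv3 of complex I, at -0.31 ± 0.09 (adjusted p = 0.0267) and -0.21 ± 0.06 (adjusted p = 0.0287).

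The 6 Cebpa-KO libraries were spread more widely than those of the other groups, with a median coefficient of variation over subunits of 9.28%, against 7.87% in Trib1-KO, 7.30% in DKO and 8.46% in WT libraries. Among the Cebpa-KO libraries, column F1 was highest for 45 of 76 subunits and column F3 lowest for 55. In WT, column B1 was highest for 52. Without F3, 10 subunits were called higher in Cebpa-KO, and without WT column A2, 3.

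In livers labelled DKO nearly all subunits did not pass the test against WT. On the deposited scale 1 rose and 1 fell, where 2.84% of all genes rose and 3.25% fell, and the median was -0.06 against 0.00 for all genes. The groups did not overlap for 0 subunits that were higher and 1 that was lower, patterns seen in 1.55% and 1.56% of all genes. With the Mup-free totals 0 rose and 2 fell, where 2.10% of all genes rose and 3.81% fell, and the groups overlapped for all 76, where 0.964% of all genes lay fully higher and 1.99% fully lower. Ndufb3 (chr1:58586384-58595964), an accessory subunit of the membrane arm of complex I, had 649 to 771 (median 715) normalized counts in libraries labelled DKO, against 799.8 to 1011 (median 936) in WT libraries. It fell, at -0.36 ± 0.09 (adjusted p = 0.0115) with no overlap, and was -0.40 ± 0.09 (adjusted p = 0.00583) on the Mup-free scale, where the groups overlapped. Cox6b1 rose, with 3605 to 4785 (median 4430.0) normalized counts in libraries labelled DKO, at 0.27 ± 0.07 (adjusted p = 0.0305). Its Mup-free difference was 0.23 ± 0.07 (adjusted p = 0.0705), and leaving out any 1 of 6 libraries (G1, G2, G3 and H2 of DKO, A2 and B2 of WT) ended the call, with an adjusted p of up to 0.0794. Ndufv3 was lower on the Mup-free scale alone, at -0.23 ± 0.06 (adjusted p = 0.0216). Uqcr11, Atp5g1 and Ndufa4, which fell in livers labelled Trib1-KO, lay at 0.01 ± 0.10, 0.03 ± 0.08 and -0.03 ± 0.06 in livers labelled DKO, and none was called. Atp5g1 had 1525 to 1962 (median 1699) normalized counts in libraries labelled DKO, against 1470.3 to 1945 (median 1601) in WT libraries, and Ndufa4 had 4506 to 5399 (median 5037) in libraries labelled DKO, against 4716 to 5486 (median 5132) in WT libraries. The groups overlapped widely for both.

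**Figure D3:**
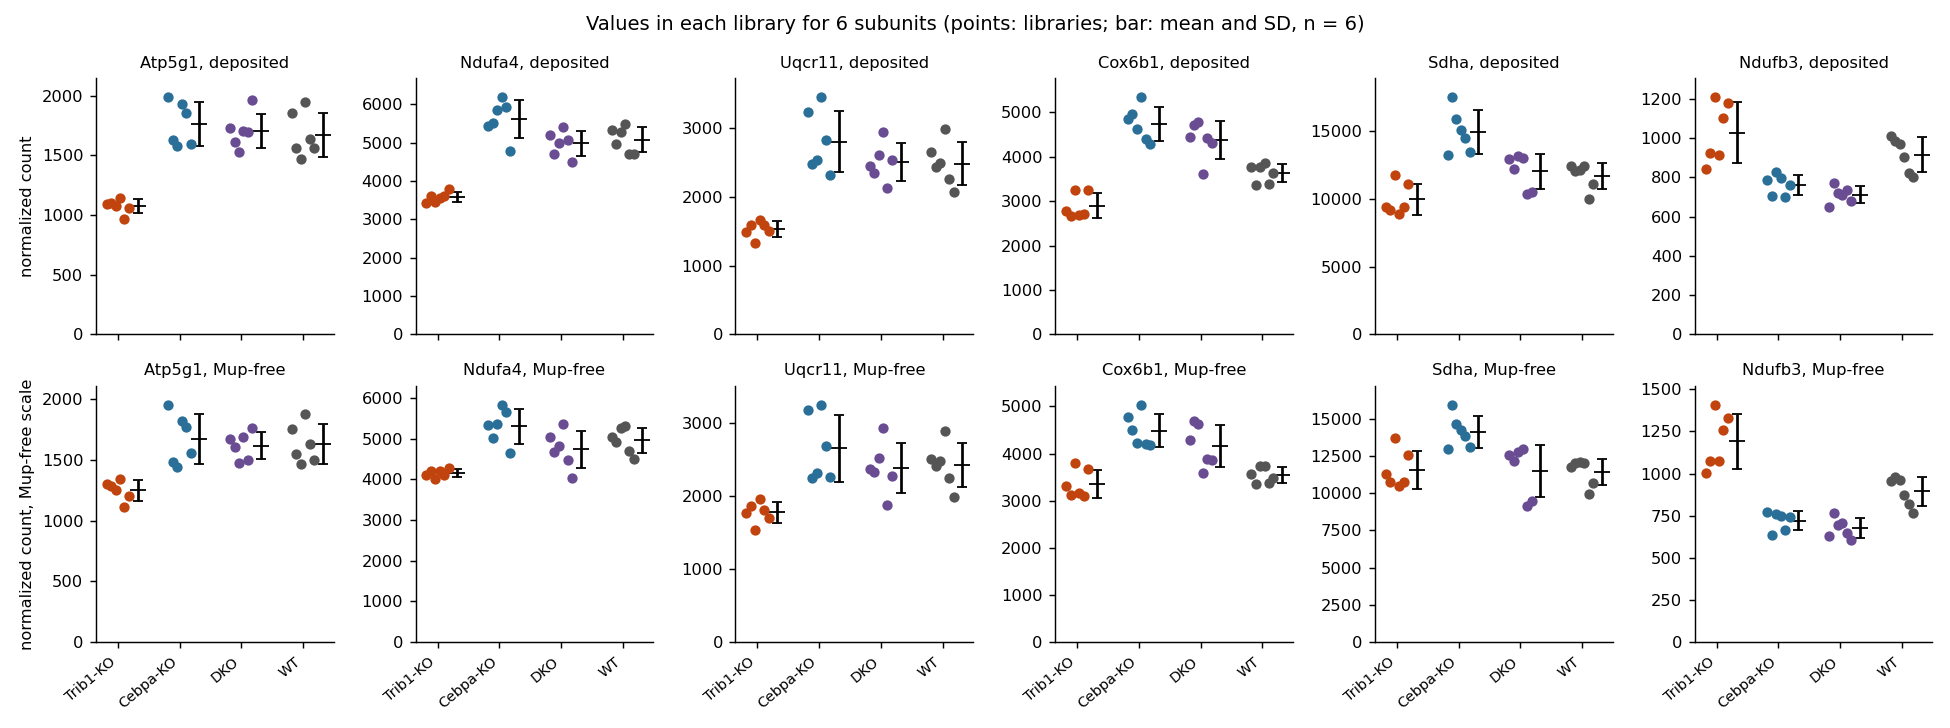
Points are libraries and bars the mean and SD of each group (n = 6), for the 6 subunits called in the same direction on both scales in a comparison with WT; the y axis is the normalized count on the deposited scale (upper row) or the Mup-free scale (lower row). Uqcr11, Atp5g1 and Ndufa4 are lowest in Trib1-KO, Cox6b1 and Sdha highest in Cebpa-KO, and Ndufb3 lower in DKO (649 to 771) than in WT (799.8 to 1011) on the deposited scale.

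Between DKO and Cebpa-KO livers, which share the floxed Cebpa gene and differ in floxed Trib1, no subunit was called on either scale by limma, where 0.0808% of all genes were called higher and 0.121% lower. At an unadjusted p under 0.05 there were 25 of 76 subunits on the deposited scale, where 9.48% of all genes were. Of the 76, 67 had a lower mean in DKO, with a median of -0.11 against 0.00 for all genes. For 6 subunits every DKO library lay below every Cebpa-KO library, a pattern seen in 0.439% of all genes, and for 0 above (0.273%). The 6, named here after their values were seen, were Sdha, Atp5k, Uqcrb, Cox7c, the ordinary Atp5o and Ndufa3. Sdha had 10377 to 13186 (median 12592) normalized counts in libraries labelled DKO, against 13221 to 17513 (median 14835) in Cebpa-KO libraries, a difference of -0.31 ± 0.09 (adjusted p = 0.173). Sdha and Atp5o kept groups that did not overlap on the Mup-free scale, where 0.363% of all genes lay fully lower and 0.262% fully higher.

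Between DKO and livers labelled Trib1-KO, which share the floxed Trib1 gene and differ in floxed Cebpa, 37 of 76 subunits were higher in DKO and 2 lower on the deposited scale, where 14.6% of all genes were higher and 15.7% lower. The groups did not overlap for 24 that were higher and 2 that were lower, patterns seen in 8.14% and 8.74% of all genes. The median was 0.20 against -0.02 for all genes. Of the 3107 abundant genes, more were higher than over all genes, with 1023 higher, 555 lower and a median of 0.09. For 685 of them every DKO library lay above every Trib1-KO library, and for 353 below. With the Mup-free totals 5 were higher and 18 lower, where 7.21% of all genes were higher and 32.6% lower. The median of -0.10 lay above that of all genes, -0.29. Of the abundant genes 481 were higher and 1399 lower on that scale, with a median of -0.20. There 1 subunit was fully higher and 7 fully lower in DKO, against 3.49% and 18.1% of all genes. Higher on both scales were Uqcr11 at 0.71 ± 0.10 (adjusted p = 3.76e-06), Atp5g1 at 0.66 ± 0.08 (adjusted p = 2.59e-07), Cox6b1 at 0.60 ± 0.07 (adjusted p = 5.60e-07) and Ndufa4 at 0.48 ± 0.06 (adjusted p = 1.42e-06), and also Ndufb4 at 0.72 ± 0.16 (adjusted p = 7.77e-04). Cox6b1 had 3605 to 4785 (median 4430.0) normalized counts in libraries labelled DKO, against 2668 to 3256 (median 2744) in libraries labelled Trib1-KO. The pair lower in DKO on both scales was Ndufb3 (-0.52 ± 0.09, adjusted p = 4.05e-05) and Ndufs5 (-0.28 ± 0.08, adjusted p = 0.00720), whose DKO values did not reach those of Trib1-KO.

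By complex, 18 of 36 rows of complex I were higher in DKO than in Trib1-KO on the deposited scale, 3 of 4 in complex II, 3 of 8 in complex III, 6 of 10 in complex IV and 7 of 18 in complex V. Sdhc, Sdhd and Sdha were 0.32 ± 0.07, 0.32 ± 0.06 and 0.27 ± 0.09. Ndufv1 was 0.43 ± 0.09 (adjusted p = 4.08e-04) and was not called on the Mup-free scale. This comparison and that of Trib1-KO with WT share the libraries labelled Trib1-KO, so their differences are not independent of each other.

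Whether the Trib1 label went with a different change in livers with and without floxed Cebpa was tested as an interaction, the difference of DKO from Cebpa-KO minus that of Trib1-KO from WT. On the deposited scale 7 of 76 subunits had a positive interaction and none a negative one, where 6.35% of all genes were positive and 6.22% negative. The median was 0.14 against -0.01 for all genes, and the count of 7 is not far from the share over all genes. Among the 3107 abundant genes the median was 0.10, with 590 positive and 190 negative interactions. The highest were Atp5g1 at 0.59 ± 0.11 (adjusted p = 6.17e-04), Uqcr11 at 0.54 ± 0.14 (adjusted p = 0.0108) and Ndufv3 at 0.37 ± 0.08 (adjusted p = 0.00366), followed by Ndufa4 at 0.33 ± 0.09 (adjusted p = 0.0120) and Cox7a2 at 0.25 ± 0.07 (adjusted p = 0.0257). With the Mup-free totals 1 subunit was positive and 6 were negative, where 3.12% of all genes were positive and 14.9% negative. The positive one was Atp5g1, at 0.34 ± 0.11 (adjusted p = 0.0377), and Ndufs5, Cox7b and Ndufb3 were among the negative ones, at -0.53 ± 0.12, -0.52 ± 0.12 and -0.50 ± 0.13. Atp5g1 was the subunit called with the same sign on both scales. Without DKO column G3 there were 4 positive interactions on the deposited scale, Cox7a2 being among those lost, and without Cebpa-KO column F1 there were 11.

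**Figure D4:**
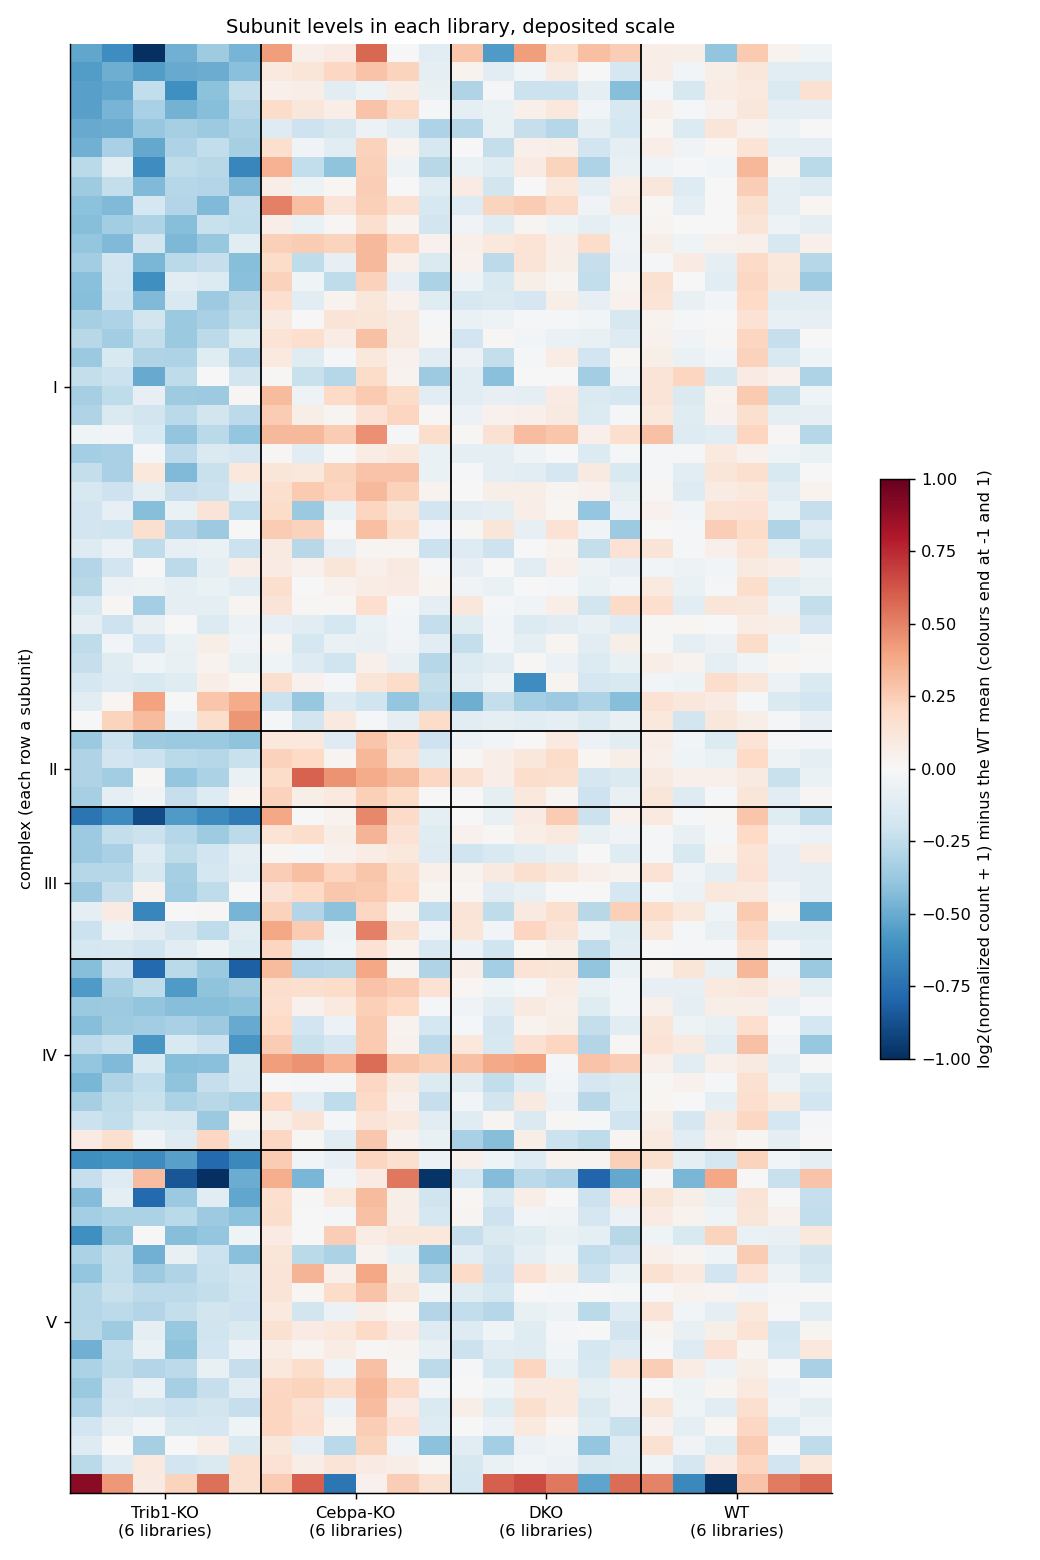
Rows are the 76 subunit rows, ordered by complex I to V from top to bottom and, within a complex, by the mean of the libraries labelled Trib1-KO, lowest first, and columns are the 24 libraries by group. Colour gives log2(normalized count + 1) minus the WT mean on the deposited scale, with colours ending at -1 and 1. The Trib1-KO block is blue for most rows (72 of 76 differences are negative), and in the Cebpa-KO block column F3 is the lowest for 55 rows.

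The rest of the pathway was described from lists of genes. Their counts are to be read against the shares of all genes given above, which in Trib1-KO against WT were 11.8% higher and 10.9% lower on the deposited scale, and 26.7% higher and 4.89% lower on the Mup-free scale. The 13 subunits encoded in mitochondrial DNA had a median difference of -0.26 between Trib1-KO and WT on the deposited scale, close to that of the nuclear-encoded subunits, with single genes between -0.55 and 0.37. Of these, mt-Cytb, the cytochrome b of complex III, fell, at -0.35 ± 0.10 (adjusted p = 0.00851), and none rose. With the Mup-free totals 3 of them rose and none fell, mt-Cytb being at -0.10. In the comparisons of Cebpa-KO and DKO with WT none of the 13 was called.

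Assembly factors of complex I were lower in Trib1-KO for 6 of 17 measured on the deposited scale, and none rose (median -0.19), while on the Mup-free scale 2 rose and 2 fell (median 0.06). Dmac2, which is needed for the distal membrane arm, averaged 398 normalized counts in Trib1-KO, 1109.9 in Cebpa-KO, 954 in DKO and 855 in WT libraries. Its difference in Trib1-KO, -1.12 ± 0.10 (adjusted p = 6.57e-09), was larger than that of any subunit and was -0.87 on the Mup-free scale, and Dmac2 rose in Cebpa-KO by 0.38 ± 0.10 (adjusted p = 0.0162). Timmdc1 and Ndufaf6, further assembly factors, fell in Trib1-KO, at -0.36 ± 0.07 (adjusted p = 1.53e-04) and -1.13 ± 0.30 (adjusted p = 0.00679), and Timmdc1 was not called on the Mup-free scale (-0.11). Acad9 rose in Cebpa-KO by 0.49 ± 0.10 (adjusted p = 0.00186) and in DKO by 0.40 ± 0.10 (adjusted p = 0.0170), or 0.36 on the Mup-free scale (adjusted p = 0.0521). Of 35 assembly factors of complexes II to V, 7 fell in Trib1-KO and none rose (median -0.10), among them the copper chaperone Cox17 (-0.56 ± 0.11, adjusted p = 6.03e-04) and Surf1 (-0.38 ± 0.08, adjusted p = 6.39e-04), and on the Mup-free scale 5 rose and 1, Cox17, fell. Sco2, a copper chaperone of complex IV, fell in Cebpa-KO, at -0.86 ± 0.14 (adjusted p = 1.68e-04).

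Of 21 genes that carry electrons or feed them into the chain, 3 were higher and 4 lower in Trib1-KO on the deposited scale (median -0.16), and 6 higher and 1 lower, Prodh, on the Mup-free scale (median 0.09). Coq8b, needed to make ubiquinone, rose by 1.69 ± 0.13 (adjusted p = 8.21e-10), and Gpd2, the mitochondrial glycerol-3-phosphate dehydrogenase, by 0.82 ± 0.15 (adjusted p = 2.48e-04). Prodh, the proline dehydrogenase, fell, at -0.65 ± 0.10 (adjusted p = 1.29e-05). Of 17 genes of the tricarboxylic acid cycle, 3 were higher and 3 lower in Trib1-KO on the deposited scale, and 7 higher and 0 lower on the Mup-free scale. Citrate synthase, Cs, averaged 4301 normalized counts in Trib1-KO, 2575 in Cebpa-KO, 2505 in DKO and 3154 in WT libraries. Cs rose in Trib1-KO by 0.44 ± 0.07 (adjusted p = 1.75e-05) and was lower in Cebpa-KO (-0.29 ± 0.07, adjusted p = 0.00460) and DKO (-0.33 ± 0.07, adjusted p = 0.00257). Within the same enzyme, isocitrate dehydrogenase, Idh3a rose by 0.47 ± 0.09 (adjusted p = 5.75e-04) and Idh3b fell, at -0.48 ± 0.09 (adjusted p = 2.54e-04), in Trib1-KO on the deposited scale. On the Mup-free scale Idh3a stood at 0.72 and Idh3b at -0.23, the second of which did not pass (adjusted p = 0.0957).

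Of 24 regulators of mitochondrial genes, 2 fell in Trib1-KO and none rose on the deposited scale, and 1, Ppargc1b, fell and 3 rose on the Mup-free scale. Ppargc1b, a PGC-1 coactivator, averaged 117 normalized counts in Trib1-KO, 398 in Cebpa-KO, 309 in DKO and 274 in WT libraries. It fell in Trib1-KO, at -1.22 ± 0.16 (adjusted p = 2.93e-06) and rose in Cebpa-KO by 0.54 ± 0.16 (adjusted p = 0.0314), with an interaction of 0.85 ± 0.23 (adjusted p = 0.0135), or 0.60 on the Mup-free scale (adjusted p = 0.0531). Twnk, the mitochondrial DNA helicase, fell in Trib1-KO on the deposited scale, at -0.31 ± 0.06 (adjusted p = 3.59e-04). Ppargc1a, the gene of the best-known PGC-1 coactivator, averaged 319.5 normalized counts in Trib1-KO, 152 in Cebpa-KO, 179 in DKO and 259.7 in WT libraries, and its difference in Cebpa-KO, -0.76 ± 0.30, did not pass (adjusted p = 0.123).

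Of 75 mitochondrial ribosomal proteins, which make the mitochondrially encoded subunits, 16 fell and 1 rose in Trib1-KO on the deposited scale (median -0.16). Mrpl50 fell, at -0.38 ± 0.06 (adjusted p = 2.03e-05) and Mrps17 rose by 0.42 ± 0.08 (adjusted p = 5.45e-04). None fell and 14 rose on the Mup-free scale. The 80 cytosolic ribosomal proteins, a set of short abundant transcripts of another process, had 3 higher and 2 lower and a median of 0.04 on the deposited scale, where the median of the nuclear-encoded subunits was -0.24. On the Mup-free scale 54 of the 80 were higher and 0 lower, with a median of 0.29 against 0.01 for the nuclear-encoded subunits. Of 24 protein import genes 5 fell and none rose on the deposited scale, but 7 rose and none fell on the Mup-free scale. The chaperone Hspa9 was -0.31 ± 0.06 (adjusted p = 9.07e-04) on the deposited scale and -0.06, not called, on the Mup-free scale. Of 8 carriers of ADP, ATP and phosphate and uncoupling proteins 2 rose and 2 fell on the deposited scale, and 3 rose and none fell on the Mup-free scale. Of the outer membrane channels, Vdac1 was -0.32 ± 0.05 on the deposited and -0.06 on the Mup-free scale, and Vdac3 0.26 ± 0.06 and 0.51. Of 8 measured subunit isoforms and subunits outside the name rule, 1 fell, Cyc1, the cytochrome c1 of complex III, at -0.26 ± 0.07 (adjusted p = 0.01), and was -0.01 and not called on the Mup-free scale, where 1 other of the 8 rose.

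**Figure D5:**
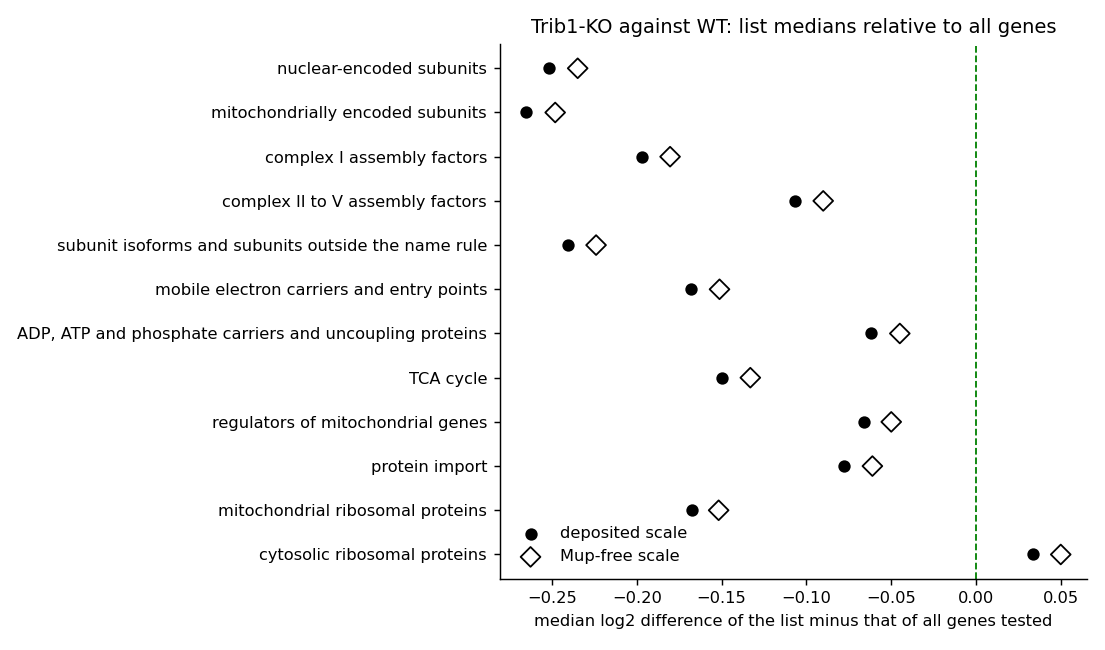
For Trib1-KO against WT, each row is a list of genes and the x axis is the median log2 difference of the list minus that of all genes tested, on the deposited scale (filled circles) and the Mup-free scale (open diamonds). The nuclear-encoded subunits lie at -0.25 and -0.24, the mitochondrially encoded subunits close to them, and the cytosolic ribosomal proteins above 0 on both scales. A change of totals moves each list and all genes by nearly the same amount, so circles and diamonds could hardly lie far apart.

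In Cebpa-KO, 4 of 17 tricarboxylic acid cycle genes rose and 2 fell on each scale, where on the deposited scale 4.60% of all genes rose and 5.22% fell, and Idh2, the NADP-dependent isocitrate dehydrogenase of mitochondria, rose by 0.50 ± 0.11 (adjusted p = 0.00383). Of the mitochondrial ribosomal proteins 5 of 75 rose and 6 fell in Cebpa-KO on the deposited scale and 3 rose and 9 fell on the Mup-free scale, with Mrps12 at -0.97 ± 0.17 (adjusted p = 3.72e-04) and Mrpl45 at 0.59 ± 0.11 (adjusted p = 4.24e-04). In DKO, 2 of the 75 rose and 1 fell, where 2.84% of all genes rose and 3.25% fell, and Mrps12 was again lower, at -0.77 ± 0.17 (adjusted p = 0.00597). Between DKO and Cebpa-KO no gene of these mitochondrial and ribosomal lists was called.

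Of the 76 rows, 6 overlap an exon of another gene on the same strand and 25 overlap an antisense gene, by the GENCODE M21 annotation of GRCm38. The library kit marks strand, but the strand setting of the quantification is not given in the sources used here, so reads of overlapping genes may be shared. The near-identical pairs were summed as a check. Cox6c with Cox6c2 differed by -0.29 ± 0.06 in Trib1-KO (adjusted p = 0.00103), and the 2 Atp5o rows together by -0.08 ± 0.07 (adjusted p = 0.522).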

How the data were processed

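RNA of 24 whole livers was sequenced from TruSeq stranded mRNA libraries, 6 per group. The authors deposited a single table with 1 signal value per gene and library, read here, from the tools named and a median ratio that is equal between libraries, as estimated counts divided by a size factor per library and called normalized counts. Per the submitters' processing notes the tools were Salmon and DESeq2 and the genome GRCm38.p6, with versions not given in the sources used here. The deposited values summed to 23385900.0 to 27190700.0 per library over 54432 rows, from an estimated 18640877 to 34286860.0 reads. Between 61.0 and 66.4% of low values lay within 0.02 of a whole multiple of 1 read, so whole reads were not recovered and no count test was run.

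All 19810 genes with a mean of at least 1 were fitted with limma 3.58.1 (R 4.3.3, intensity trend) on log2(value + 1), as 1 fit of 4 group means with no batch term, because columns name the group and neither mouse nor cohort. On the log2(value + 1) scale differences understate changes of low genes. P-values were adjusted by Benjamini-Hochberg over all genes tested, with a threshold of 0.05, and measure the spread between these libraries. The Mup-free scale divides each library by its total without the 48 Mup rows, relative to the mean of these totals. Levels per kilobase use the length of 1 GENCODE M21 transcript per gene, and motifs were searched in RefSeq windows of 300 bases. Alternatives were the Mup-free scale, a scale without the 50 most abundant genes, quantile normalization, other filters and pseudocounts, fits without the trend or with the compared groups alone, a block for the number in the column name, each library left out in turn and, added after the data were seen, summed gene copies. The script was tested on simulated data.

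Members, gene lists and tests were chosen with earlier results of these data known. Named subunits were 22 set by function, plus, per comparison and complex, up to 2 called members with the largest rise and 2 with the largest fall, and, per list and comparison, up to 4 genes with the smallest adjusted p. The values of 1 subunit set by function are not reported here. Members named for the Mup-free scale or for groups that do not overlap were chosen after their values were seen.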

Additional observations from a re-analysis of the deposited data

Results flagged for a closer look

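Dixon's test was run on 136 sets of 6 libraries. The sets were each named subunit, the sum of the 76 subunits and its share of the total without Mup genes, in each of the 4 groups. In 4 sets a library lay far from the other 5, and chance gives such a library in about 1 in 20 sets. Ndufb4 was lowest in column G2 of DKO, at 148 normalized counts, with the other 5 libraries at 248 to 294. Ndufa9 was lowest in column H3 of DKO, at 2229, with the others at 2392 to 2479. Sdhc was highest in column C2 of the libraries labelled Trib1-KO, at 2601, with the others at 2281 to 2355. Uqcrfs1 was highest in column B1 of WT, at 4014, with the others at 3319 to 3477, and this column was also the highest of its group for 52 of 76 subunits.

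For 7 subunits the difference that goes with the Trib1 label was called as different with and without floxed Cebpa, by the interaction in limma on the deposited scale, where 6.35% of all genes had a positive interaction. Among the 3107 genes with a mean of 1000 or more, 590 did. The log2 interactions were 0.59 for Atp5g1 (adjusted p = 6.17e-04), 0.54 for Uqcr11 (adjusted p = 0.0108), 0.37 for Ndufv3, 0.33 for Ndufa4, 0.31 for Ndufa6, 0.27 for Ndufv2 and 0.25 for Cox7a2. On the Mup-free scale Atp5g1 alone of these 7 passed, at 0.34 (adjusted p = 0.0377).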

How the results depend on the processing

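The scale moved the counts most, and the shares of all genes on the deposited and Mup-free scales are given above. On the Mup-free scale, 4 subunits were higher and 3 lower in livers labelled Trib1-KO than in WT, 2 higher and 2 lower in Cebpa-KO than in WT, 0 higher and 2 lower in DKO than in WT, 5 higher and 18 lower in DKO than in Trib1-KO, and 1 had a positive and 6 a negative interaction. Totals without the 50 most abundant genes gave 2 higher and 26 lower in Trib1-KO than in WT. Of all genes 14.7% were higher and 8.07% lower there. These totals gave 1 lower in Cebpa-KO and 2 lower in DKO, against WT, where 5.38% and 3.54% of all genes were lower. In DKO 17 were higher than in Trib1-KO, where 10.9% of all genes were. Interactions were 2 positive and 2 negative, where 4.59% of all genes were positive and 8.2% negative. Quantile normalization brought the median of the subunits relative to all genes to -0.14 in Trib1-KO against WT (-0.25 on the deposited scale). The same median came to 0.10 in DKO against Trib1-KO (from 0.22) and to 0.049 for the interaction (from 0.15). There were 3 positive and 1 negative interactions, where 6.54% of all genes were positive and 6.02% negative. A minimum mean of 10 gave 1 lower in Cebpa-KO and 2 lower in DKO, against WT. Of all genes 7.33% and 4.58% were lower in these comparisons. Without the trend, 0 were higher in DKO than in WT, where 2.39% of all genes were. Positive interactions then numbered 4, where 5.76% of all genes had one. A fit of the compared groups alone gave 3 higher in Cebpa-KO and 0 higher in DKO, against WT. Of all genes 3.93% and 1.91% were higher in these fits. The number in the column name, taken as a replicate block, gave 11 positive interactions, against 7 without the block. With the block 6.74% of all genes had a positive interaction, and no source says that this number pairs mice. The cause of these differences between settings was not tested.

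Some differences changed sign. On the Mup-free scale those of Trib1-KO from WT came to 0.0047 for Sdhd, 0.027 for Uqcrc2 and 0.036 for Atp5a1 (0.059 under quantile normalization), and those of DKO from Trib1-KO to -0.017 for Sdha and -0.077 for Atp5a1 (-0.020 under quantile normalization).

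With each library left out in turn, 38 to 48 subunits were lower and 0 to 1 higher in Trib1-KO than in WT (median relative to all genes -0.28 to -0.23). Cebpa-KO against WT gave 3 to 10 higher and 0 to 1 lower (0.02 to 0.08), the lowest without WT column A2 and the highest without Cebpa-KO column F3. DKO against WT gave 0 to 1 higher and 1 to 2 lower (-0.08 to -0.02). DKO against Cebpa-KO gave 0 throughout (-0.14 to -0.08). DKO against Trib1-KO gave 30 to 39 higher and 2 to 3 lower (0.20 to 0.24). Positive interactions numbered 4 (without DKO column G3) to 11 (without Cebpa-KO column F1) and negative ones 0 to 1 (0.11 to 0.18). Called under all alternatives run, against WT, were Uqcr11, Atp5g1 and Ndufa4 (Trib1-KO), Sdha and Cox6b1 (Cebpa-KO) and Ndufb3 (DKO).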
